A study of Homo sapiens with 6 samples.

Results

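Chromatin immunoprecipitation followed by sequencing (ChIP-seq) intervals were described near 7 genes that encode writers and erasers of histone H3 lysine 4 (H3K4) methylation. The writers were KMT2A, KMT2D, KMT2C and SETD1A, and the erasers were KDM5A, KDM5B and KDM1B. An interval was a member when it lay within 20 kb of the span of one of these genes on hg19. That rule took 128 of the 271093 distinct intervals in the 4 peak lists, namely 25 of 49597 LSD1 peaks with inhibitor, 18 of 45188 LSD1 peaks with DMSO, 45 of 81619 H3K4me2 intervals and 40 of 94689 H3K4me1 intervals. The genes and their reach together made up 995 kb. The study profiled the human small cell lung cancer line NCI-H526. The inhibitor cells received GSK2879552 (GSK552 in the sample names), an LSD1 inhibitor, at 1 µM for 24 hours, and the other cells received DMSO. Both histone marks were analysed in DMSO cells only. Each group was 1 library of this single cell line, so no difference below has a replicate check or a p-value, and 2 inputs were not used here. Read depth is unknown.

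As background, H3K4 carries up to a trimethyl group, and the number of methyl groups differs between kinds of regulatory element. H3K4me1 is typical of enhancers, H3K4me3 of active promoters, and H3K4me2 occurs at both, often on the flanks of a promoter. The KMT2 and SETD1 enzymes add methyl groups as the catalytic subunits of large complexes, the KDM5 enzymes remove them from H3K4me3 and H3K4me2, and LSD1 (KDM1A) and its relative KDM1B (LSD2) remove them from H3K4me2 and H3K4me1. The lists therefore show where LSD1 and its substrates lay at 7 genes whose products act on the same residue.

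H3K4me2 lay within 2 kb of the start of 7 of the 7 genes. The share of all gene starts with such intervals was not computed, for want of hg19 positions. LSD1 lay there at 6 of 7 genes with inhibitor and at 6 of 7 with DMSO, KMT2D being the exception in both lists. Within 1 kb of the start, LSD1 was at 6 genes with inhibitor and at 5 with DMSO. With the upper 50% of each list by score, LSD1 was within 2 kb at 4 genes with inhibitor and at 4 with DMSO. H3K4me1 came within 2 kb of the start at 4 genes, within 1 kb at 1 and within 5 kb at 6, and with the upper 50% of the list it was within 2 kb at 2. Gene spans were given to the nearest 1 kb, so distances from a start have an error of about that size. The spans of KMT2D and KDM5B were also shorter than in RefSeq on GRCh38, by 5.82 kb and 2.93 kb, while the other 5 genes differed by at most 0.736 kb. A difference in length does not show which end differs, so their starts may or may not lie further upstream than the points used here.

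**Figure D1:**
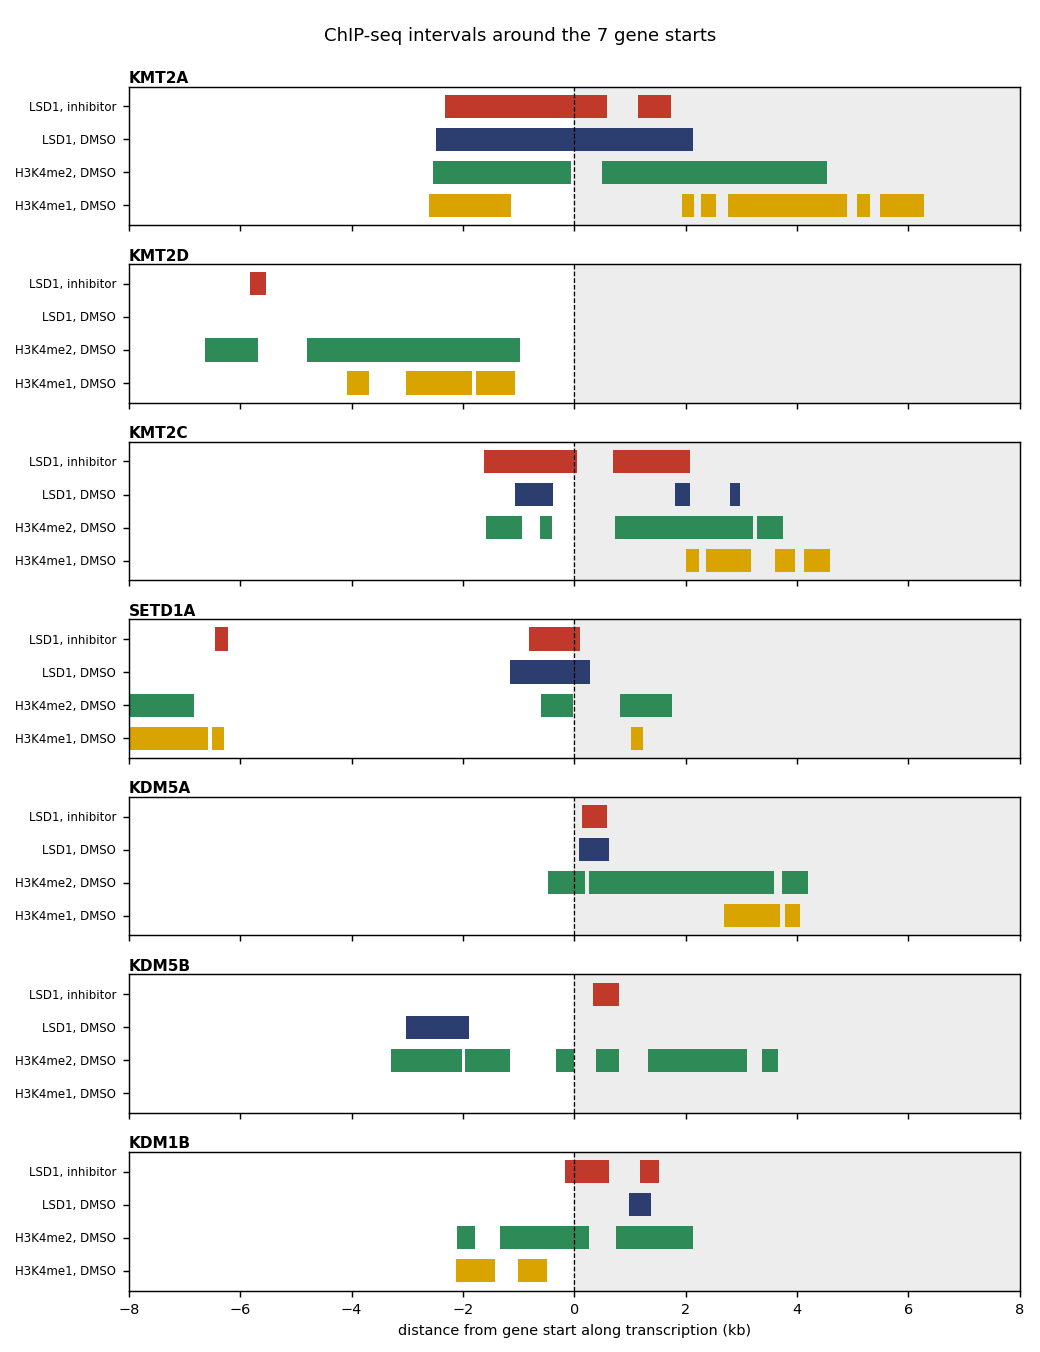
Intervals of the 4 lists within 8 kb of each gene start; x is the distance from the start in kb along the direction of transcription, the dashed line marks the start, grey marks the gene, and each bar spans an interval. H3K4me2 lies close to the start of all 7 genes, no H3K4me1 interval covers a start as placed here, and KMT2D has no LSD1 peak within 5 kb of the start used in either LSD1 list. Starts have an error of about 1 kb, and the KMT2D span used is 5.82 kb shorter than in RefSeq.

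The reference promoters of 5 genes are shown because an LSD1 peak lay at their start in both LSD1 lists and their span matched RefSeq to within 1 kb. They are the 250 bases before the RefSeq start on GRCh38, 5′ to 3′, and capitals mark each CG dinucleotide, the site of DNA methylation. The peaks are on hg19 and no coordinates were converted, so the bases under a peak were not read.
KMT2A promoter, GRCh38.p14, chr11:118436242-118436491, plus strand: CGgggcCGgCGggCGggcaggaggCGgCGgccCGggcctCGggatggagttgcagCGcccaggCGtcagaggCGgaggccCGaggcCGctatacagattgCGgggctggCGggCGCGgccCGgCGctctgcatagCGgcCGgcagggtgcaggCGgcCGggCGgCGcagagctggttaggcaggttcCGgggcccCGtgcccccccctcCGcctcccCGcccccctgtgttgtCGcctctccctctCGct
KMT2C promoter, GRCh38.p14, chr7:152436004-152436253, minus strand: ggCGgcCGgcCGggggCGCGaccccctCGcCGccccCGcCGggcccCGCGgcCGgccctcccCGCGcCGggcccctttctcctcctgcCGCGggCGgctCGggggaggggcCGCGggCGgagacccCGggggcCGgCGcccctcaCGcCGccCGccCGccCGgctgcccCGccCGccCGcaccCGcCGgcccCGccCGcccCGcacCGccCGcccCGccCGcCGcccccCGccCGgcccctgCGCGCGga
SETD1A promoter, GRCh38.p14, chr16:30957504-30957753, plus strand: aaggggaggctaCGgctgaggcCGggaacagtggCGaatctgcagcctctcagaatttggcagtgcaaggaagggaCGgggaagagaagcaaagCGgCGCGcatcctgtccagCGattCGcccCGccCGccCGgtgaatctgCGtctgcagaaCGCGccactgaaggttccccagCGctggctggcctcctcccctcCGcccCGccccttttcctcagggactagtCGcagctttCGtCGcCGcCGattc
KDM5A promoter, GRCh38.p14, chr12:389321-389570, minus strand: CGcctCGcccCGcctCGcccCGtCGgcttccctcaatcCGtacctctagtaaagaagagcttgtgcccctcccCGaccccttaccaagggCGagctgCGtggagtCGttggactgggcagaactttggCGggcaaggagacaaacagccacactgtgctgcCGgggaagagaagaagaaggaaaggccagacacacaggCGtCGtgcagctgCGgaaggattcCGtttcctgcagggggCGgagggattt
KDM1B promoter, GRCh38.p14, chr6:18155172-18155421, plus strand: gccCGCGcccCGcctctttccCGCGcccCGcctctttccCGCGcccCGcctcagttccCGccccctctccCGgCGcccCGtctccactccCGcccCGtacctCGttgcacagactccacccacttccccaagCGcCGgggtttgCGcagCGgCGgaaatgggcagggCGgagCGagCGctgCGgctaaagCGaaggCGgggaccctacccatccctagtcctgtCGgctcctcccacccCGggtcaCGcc
All 7 genes matched the RefSeq table. The KMT2C promoter held 48 CG dinucleotides, more than 99.7% of the 35116 promoters in the table, whose median was 11. KMT2A held 31, KDM1B 30, SETD1A 23 and KDM5A 18, and the promoters not printed held 27 for KDM5B and 23 for KMT2D. The motif GGGCGG (either strand), known as the GC box, was found in 7 of 7 promoters and in 42.6% of all promoters. CCGGAAG and CCAAT (either strand) were found in 0 of 7, against 8.52% and 32.0% of all promoters. The 7 promoters were 62.0 to 92.0% G or C, above the median of 58.0% for all promoters. The part of base composition in these motif counts was not tested.

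Among the writers, KMT2A (MLL1), a trithorax-type methyltransferase that is rearranged in acute leukaemias, had the widest LSD1 peak of the set. With inhibitor the peak at its start spanned 2909 bp (chromosome 11, 118304672 to 118307580), with a fold enrichment of 3.89 and a score percentile of 92.0 within its list. With DMSO the peak there spanned 4626 bp (118304514 to 118309139), wider than 99.9% of its list, with a fold of 4.15 and a score percentile of 94.8. Fold is the authors' enrichment over the peak caller's background, and score percentile is the percent of peaks in the same list with a weaker q-value. A second inhibitor peak of 600 bp (118308138 to 118308737) lay inside the span of the DMSO peak, so the DMSO list had 1 interval where the inhibitor list had 2.

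The H3K4me2 intervals at the start of KMT2A were among the strongest of the whole list. The upstream interval (118304468 to 118306948) ranked 24 of 81619 by q-value with a fold of 22.0, and the interval inside the gene (118307492 to 118311537) ranked 122 with a fold of 20.4. They left a gap of 543 bp around the start, which was covered by LSD1 with inhibitor and with DMSO. H3K4me1 lay on the outside, with 1476 bp ending 1.14 kb upstream of the start and 5 intervals running from 1.94 kb into the gene to 6.29 kb. Within 5 kb of the start, H3K4me2 covered 6.53 kb and H3K4me1 4.10 kb.

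No interval of any list lay between the start-proximal group and the 3′ end of KMT2A. Beyond the 3′ end, where TTC36 and TMEM25 are the next genes, H3K4me2, H3K4me1 and LSD1 appeared again about 93 kb from the start. The LSD1 peak there had a fold of 3.28 with inhibitor (118401041 to 118402283) and 3.76 with DMSO (118401036 to 118402331). A last LSD1 peak, 102 kb from the start, carried neither mark and was in both lists. The background implied by fold and p-value was higher at KMT2A than at the other genes: its median over intervals was 2.49 times the list median for LSD1 with inhibitor, 1.84 for LSD1 with DMSO, 2.18 for H3K4me2 and 2.49 for H3K4me1. The medians at the other genes ran from 0.731 to 1.36, 0.782 to 1.11, 0.583 to 1.15 and 0.88 to 1.54 in the same lists. A higher background gives a smaller p at the same fold, and its part in the ranks at KMT2A was not tested. The calculation treats fold and p as values of 1 position, which was not checked for the LSD1 peaks.

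SETD1A, the catalytic subunit of a SET1/COMPASS complex, had the highest-scoring LSD1 peak over a gene start in both lists. With inhibitor the peak (chromosome 16, 30968192 to 30969103, 912 bp) had a fold of 6.67, a −log10 q of 11.6 and rank 947. With DMSO it (30967840 to 30969286, 1447 bp) had a fold of 5.02, a −log10 q of 5.92 and rank 2244. The lists differ in length and in their q-values, so the ranks show the place within each list and no change. The marks at this start were weak by comparison. The H3K4me2 interval just upstream (30968409 to 30968972) had a fold of 5.84 and a score percentile of 58.9, and the one inside the gene (30969819 to 30970756) a fold of 8.34 and a percentile of 75.0. They left a gap of 846 bp, which LSD1 touched in both lists. H3K4me1 covered 0.214 kb within 5 kb of the start, by a single interval at score percentile 1.4.

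The strongest marks near SETD1A lay upstream, toward ORAI3, the next gene. The H3K4me2 interval at 30959407 to 30962171 had a fold of 16.5 and the H3K4me1 interval at 30959933 to 30962426 a fold of 9.18, at score percentiles of 94.8 and 94.1. An LSD1 peak at their edge (30962540 to 30962788) was in the inhibitor list and not in the DMSO list, at a score percentile of 22.5.

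KMT2C (MLL3) and KMT2D (MLL4) are the catalytic subunits of complexes known for monomethylation of H3K4 at enhancers. At KMT2C, the longest gene of the set at 301 kb, LSD1 lay at the start in both lists. With inhibitor the peak over the start (chromosome 7, 152132946 to 152134630) was 1685 bp wide with a fold of 5.56 and a score percentile of 87.5. With DMSO the peak nearest the start (152133390 to 152134073) was 684 bp wide with a fold of 3.50 and a score percentile of 48.4. H3K4me2 flanked the start with a gap of 1119 bp, and its widest interval (152129797 to 152132278) had a fold of 15.7. H3K4me1 began 2.0 kb inside the gene and reached a fold of 8.20 at 152129830 to 152130643.

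Further inside KMT2C, most LSD1 peaks overlapped neither mark. A peak 32.7 kb from the start (152100076 to 152100343 with inhibitor, 152100083 to 152100300 with DMSO) had a score percentile of 73.2 with inhibitor and 94.9 with DMSO and overlapped neither H3K4me2 nor H3K4me1. Its fold was only 3.47 with inhibitor and 4.33 with DMSO, and its implied background was 2.33 and 1.96 times the list median. Peaks 14.4 kb and 196 kb from the start, by the inhibitor list, were likewise in both LSD1 lists and on neither mark. An inhibitor-only peak 68.9 kb from the start was on neither mark, at a score percentile of 30.8, and another 273 kb from it was on H3K4me1, at 29.1. A DMSO-only peak (152130022 to 152130204) lay on both marks 2.8 kb inside the gene, with a fold of 4.04 and a score percentile of 66.4.

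At KMT2D, H3K4me2 intervals were frequent and LSD1 was absent from the start used. Its window held 10 H3K4me2 intervals, or 13.2 per 100 kb, against 2.64 per 100 kb over the whole list. The window was 76 kb for a gene span of 36 kb. Most of these H3K4me2 intervals lay outside the gene, on the sides of its neighbours, and 1 lay at the start used. The density therefore describes the window more than the gene. LSD1 peaks numbered 2.63 per 100 kb with inhibitor and 1.32 with DMSO, against 1.6 and 1.46 over the whole lists. The widest H3K4me2 interval, at the start (chromosome 12, 49449977 to 49453803, 3827 bp), had a fold of 19.3 and ranked 1877. No LSD1 peak came within 5 kb of the start in either list. An inhibitor-only LSD1 peak (49454542 to 49454827, fold 3.95, score percentile 69.2) lay 5.54 kb upstream, at the edge of the next H3K4me2 interval. That distance is close to the 5.82 kb by which the RefSeq gene is longer than the span used. A second inhibitor-only peak (49463309 to 49463780) lay 14.3 kb upstream on H3K4me2, on the side of RHEBL1 and DHH. The single LSD1 peak with DMSO (49391946 to 49393371), beyond the 3′ end on the side of PRKAG1, lay on both marks and was overlapped by an inhibitor peak that itself ended 20.4 kb from the gene, just outside the reach.

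**Figure D2:**
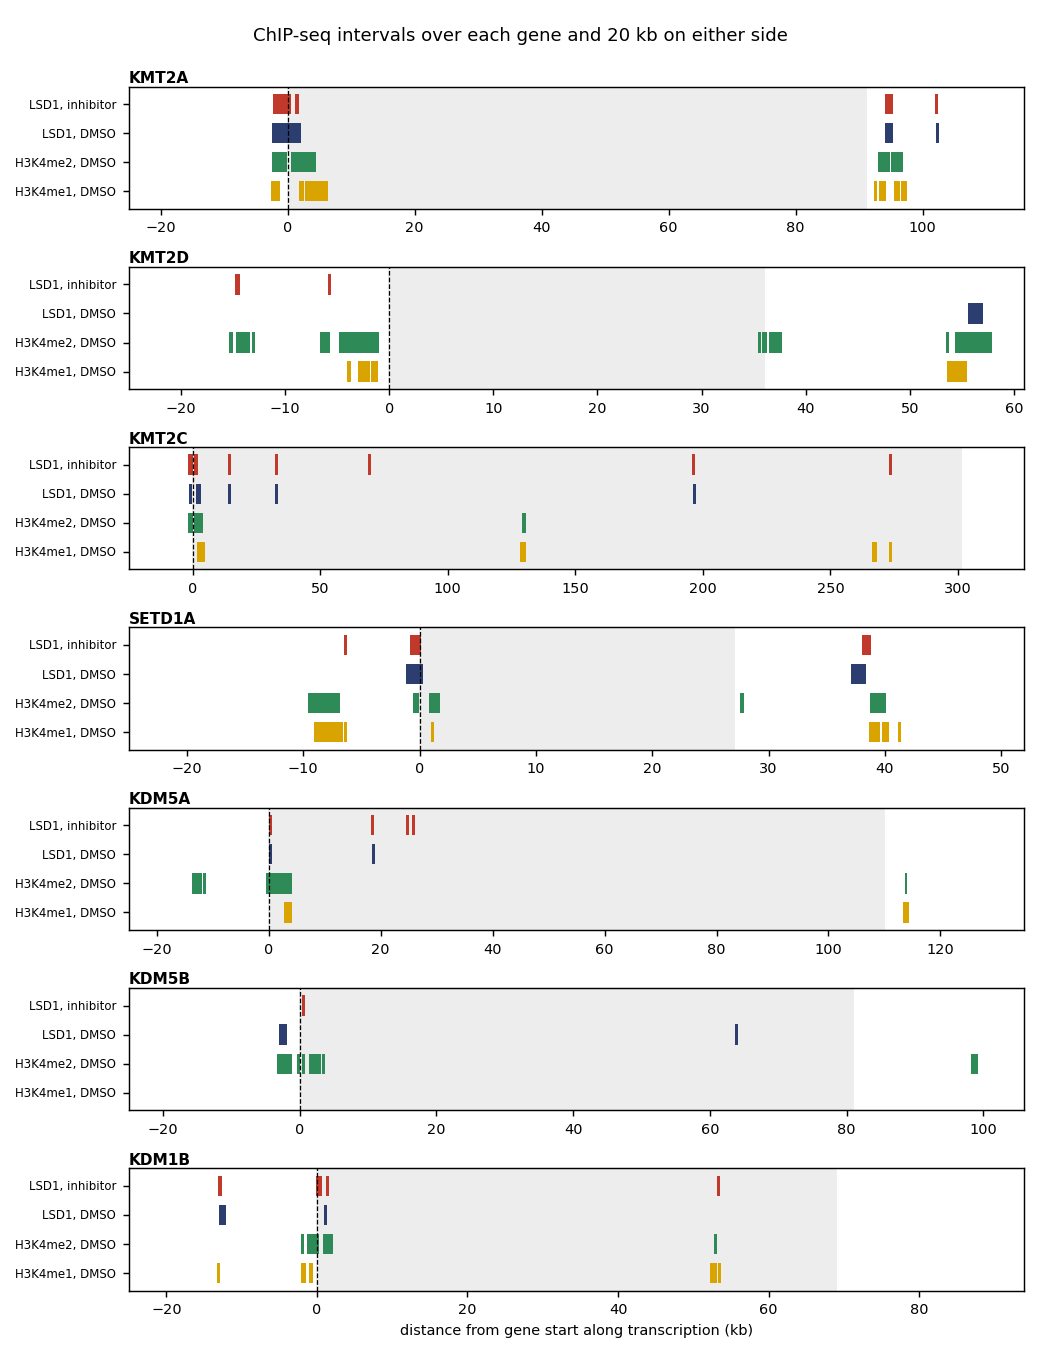
Intervals of the 4 lists over each gene and 20 kb on either side; x is the distance from the gene start in kb along transcription, on a separate scale for each gene, grey marks the gene, and narrow intervals are drawn at a minimum width. H3K4me2 lies near every start, and KMT2C, KDM5A, KDM5B and KDM1B carry LSD1 peaks inside the gene, more than 2 kb from the start, without H3K4me2 in at least 1 LSD1 list.

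Among the erasers, KDM5A (RBP2, JARID1A), a demethylase first found as a binding partner of the retinoblastoma protein, had a narrow LSD1 peak at its start in both lists. The peak spanned 443 bp with inhibitor (chromosome 12, 498415 to 498857; fold 3.88, score percentile 45.7) and 524 bp with DMSO (498384 to 498907; fold 4.73, score percentile 82.5). It bridged the 77 bp gap between an H3K4me2 interval of 3317 bp (495413 to 498729, fold 17.6) and another of 666 bp (498807 to 499472, fold 10.0). H3K4me1 began 2.68 kb inside the gene. Inside KDM5A, an LSD1 peak 18.4 kb from the start was in both lists, and those 24.7 kb and 25.7 kb from it were in the inhibitor list only. These intragenic peaks overlapped neither mark.

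KDM5B (PLU-1, JARID1B), a demethylase of the same family, had 7 H3K4me2 intervals and no H3K4me1 interval within 20 kb. Its strongest H3K4me2 interval (chromosome 1, 202780022 to 202781283) had a fold of 21.6 and ranked 2368, and lay 2.02 kb upstream of the start used. LSD1 peaks near KDM5B were weak and not shared. The inhibitor peak (202777200 to 202777671) lay 0.329 kb inside the gene with a fold of 3.20 and a score percentile of 15.2. The DMSO peak (202779894 to 202781026) lay 1.89 kb upstream with a fold of 3.36 and a score percentile of 17.0, on the strongest H3K4me2 interval. A further DMSO peak inside the gene, 63.7 kb from the start, had a score percentile of 32.6 and neither mark. Since depth is unknown, the lists do not show that LSD1 was missing from the other site.

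KDM1B, the relative of LSD1 that also removes methyl groups from H3K4me2 and H3K4me1, had the highest-scoring LSD1 peak of the 7 windows in both lists. It lay upstream, where TPMT is the next gene. The extent of TPMT on hg19 was not looked up, so the peak may lie inside that gene and need not belong to KDM1B. With inhibitor the peak (chromosome 6, 18141871 to 18142361) had a fold of 7.36, a −log10 q of 12.9 and rank 649. With DMSO it (18142044 to 18142967) had a fold of 7.09, a −log10 q of 9.84 and rank 604. It overlapped no H3K4me2 interval. The inhibitor peak touched an H3K4me1 interval of 214 bp at score percentile 0.136, among the weakest of that list, and the DMSO peak touched neither mark.

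At the start of KDM1B, the inhibitor list had a peak over the start (18154829 to 18155622, fold 4.20, score percentile 53.2) that the DMSO list lacked. A second peak was in both lists, 1.18 kb inside the gene with inhibitor (18156182 to 18156528, fold 4.34) and 0.987 kb with DMSO (18155987 to 18156386, fold 3.79). H3K4me2 covered 3.32 kb within 5 kb of the start, with a highest fold of 16.8, and H3K4me1 covered 1.22 kb on the upstream side. Inside the gene, 53.2 kb from the start, an inhibitor-only LSD1 peak (18208216 to 18208408, score percentile 68.9) overlapped H3K4me1.

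**Figure D3:**
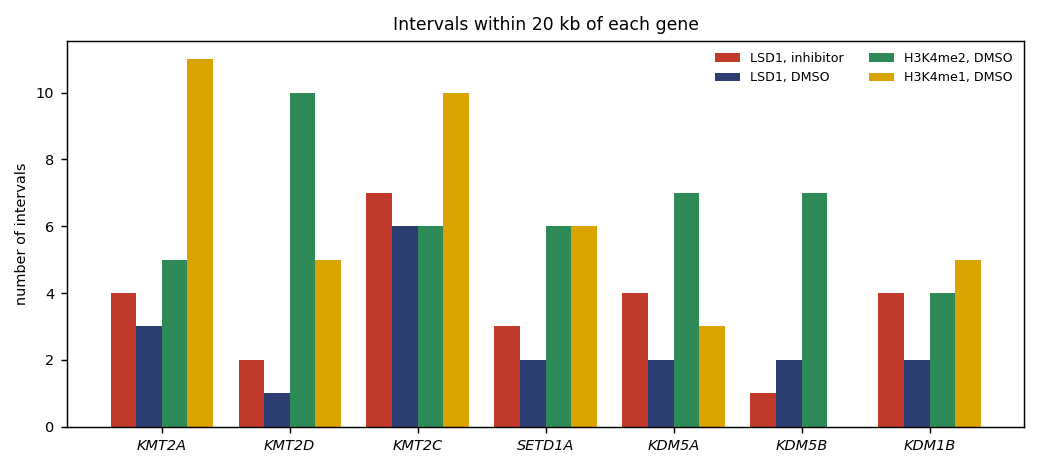
Number of distinct intervals within 20 kb of each gene (y) in the 4 lists, by gene (x), 1 library for each list. KMT2A has the most H3K4me1 intervals (11), KMT2D the most H3K4me2 intervals (10), KMT2C the most LSD1 peaks (7 with inhibitor and 6 with DMSO), and KDM5B has no H3K4me1 interval.

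Across the 7 genes, H3K4me2 sat closer to the start than H3K4me1. Within 5 kb of the start H3K4me2 covered more sequence than H3K4me1 at 7 of 7 genes, from 1.5 kb at SETD1A to 6.53 kb at KMT2A, and H3K4me1 ran from 0 at KDM5B to 4.10 kb at KMT2A. No H3K4me1 interval covered a start as placed here, and 2 H3K4me2 intervals did, at KDM5A and KDM1B. The starts have an error of about 1 kb, so which intervals cover the true starts is not settled. Of the 40 H3K4me1 intervals, 27 (67.5%, 95% Wilson interval 52.0 to 79.9%) overlapped H3K4me2, beside 47.4% of the whole H3K4me1 list. Of the 45 H3K4me2 intervals, 22 (48.9%, 35.0 to 63.0%) overlapped H3K4me1, beside 63.1% of the whole list. Wilson intervals cover counting error only, and neighbouring intervals are not independent. The windows were set around genes, so they hold gene starts more densely than the genome, and neither difference from the whole list was tested.

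LSD1 peaks at the starts lay on H3K4me2 and most of those inside the genes did not. Within 2 kb of a start, 9 of 9 LSD1 peaks with inhibitor and 7 of 7 with DMSO overlapped H3K4me2. In the gene bodies beyond that distance, 0 of 9 with inhibitor and 1 of 6 with DMSO did, and 7 of 9 and 5 of 6 overlapped neither mark. This split by place was not computed for the whole lists, so it cannot be called particular to these genes. Over all members, 13 of 25 LSD1 peaks with inhibitor (52.0%, 33.5 to 70.0%) and 10 of 18 with DMSO (55.6%, 33.7 to 75.4%) were on H3K4me2, beside 52.9% and 50.4% of the whole lists. The share on H3K4me1 was 8 of 25 with inhibitor (32.0%, 17.2 to 51.6%) and 5 of 18 with DMSO (27.8%, 12.5 to 50.9%), beside 39.5% and 41.5%. H3K4me1 without H3K4me2 was found at 4 of 25 peaks with inhibitor and 0 of 18 with DMSO, where a count of 0 allows a share of up to 16.7%, beside 9.49% and 9.84% of the whole lists. Neither mark was found at 8 of 25 with inhibitor and 8 of 18 with DMSO, beside 37.6% and 39.8%. The intervals around these shares include the values of the whole lists. With a 50% reciprocal overlap the shares on H3K4me2 were 16.0% with inhibitor and 11.1% with DMSO, and those on H3K4me1 4.0% and 5.56%. No whole-list share was computed with that overlap, so these cannot be called low for the lists.

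Seen from the marks, LSD1 overlapped 17 of 45 H3K4me2 intervals with inhibitor (37.8%, 25.1 to 52.4%) and 14 of 45 with DMSO (31.1%, 19.5 to 45.7%), beside 40.8% and 35.4% of the whole list. With a 50% reciprocal overlap the shares near the 7 genes were 8.89% and 4.44%, and the whole list was not recomputed. At the starts the counts by at least 1 bp were 11 of 17 with inhibitor and 10 of 17 with DMSO, and elsewhere 6 of 28 and 4 of 28. The whole list was not split in this way. H3K4me1 intervals were overlapped in 8 of 40 cases with inhibitor and 5 of 40 with DMSO, beside 23.8% and 23.7%. Neighbouring H3K4me2 intervals less than 2 kb apart left 26 gaps near the 7 genes. LSD1 touched 11 of these gaps with inhibitor and 7 with DMSO, beside 33.9% and 26.8% of the 44081 such gaps in the whole list, and H3K4me1 touched 5, beside 50.9%. These differences from the whole list were not tested. Of the 4 gaps that held a gene start as placed here, at KMT2A, KMT2C, SETD1A and KDM5B, LSD1 touched 4 with inhibitor and 3 with DMSO, and H3K4me1 touched 0. The gap edge was 0.007 kb from the start at KDM5B, 0.027 kb at SETD1A and 0.051 kb at KMT2A. Other gaps lay 0.194 kb from the start of KDM5A and 0.265 kb from that of KDM1B. The starts have an error of about 1 kb, so which gaps hold a start is not settled.

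**Figure D4:**
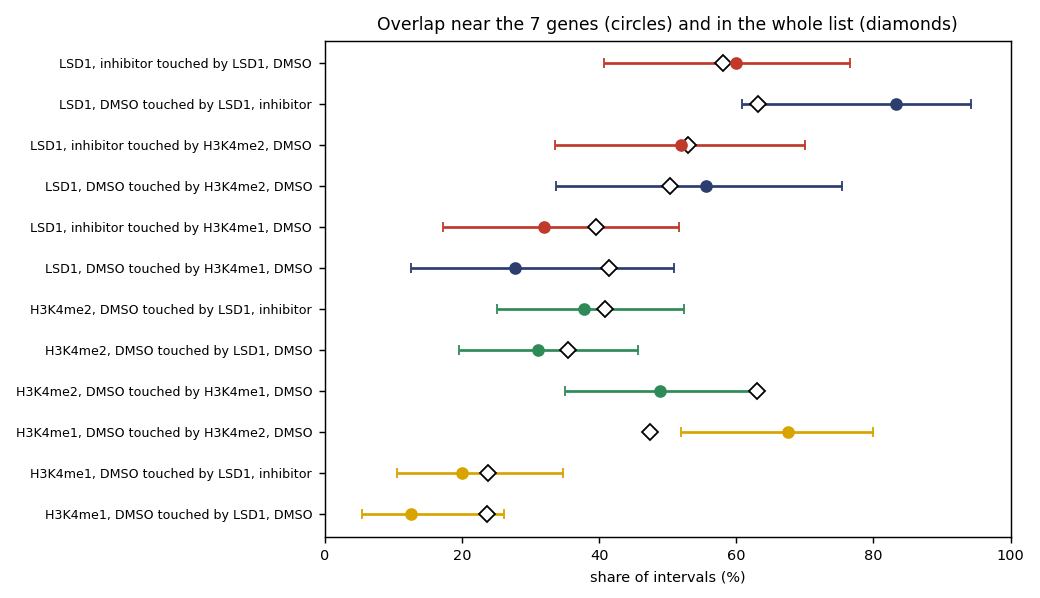
Share of intervals near the 7 genes that share at least 1 bp with another list (circles, with 95% Wilson intervals for counting error) and the same share over the whole list (open diamonds); x is the share in percent and each row is a pair of lists. The circle's interval includes the whole-list share for every pair that involves LSD1, and it does not for H3K4me1 touched by H3K4me2 or for H3K4me2 touched by H3K4me1.

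Most LSD1 peaks with DMSO near these genes shared at least 1 bp with an inhibitor peak. A DMSO peak was met by 15 of the 25 inhibitor peaks (60.0%, 40.7 to 76.6%), beside 58.1% of the whole inhibitor list. An inhibitor peak was met by 15 of the 18 DMSO peaks (83.3%, 60.8 to 94.2%), beside 63.2% of the whole DMSO list. When the overlap had to cover 50% of both peaks, the shares were 24.0% of inhibitor peaks and 33.3% of DMSO peaks. The whole lists were not recomputed at that setting. Joined where they overlapped, the peaks formed 28 sites, of which 10 were in the inhibitor list only, 3 in the DMSO list only and 15 in both. Sites were not formed over the whole lists, so this split has no whole-list value. By peak and at least 1 bp, the shared part with inhibitor was near that of its list (60.0% beside 58.1%). With DMSO it was higher (83.3% beside 63.2%), and this difference was not tested. KMT2A had shared sites only (3 of 3) and KDM5B had none (0 of 3). The inhibitor-only sites were 5 in gene bodies, 3 upstream and 2 at gene starts, namely KDM5B and KDM1B. The inhibitor list is the longer of the pair and its q-values are smaller, with a median −log10 q of 2.88 against 1.95 with DMSO, so a surplus of inhibitor-only sites and the list's length cannot be told apart here.

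**Figure D5:**
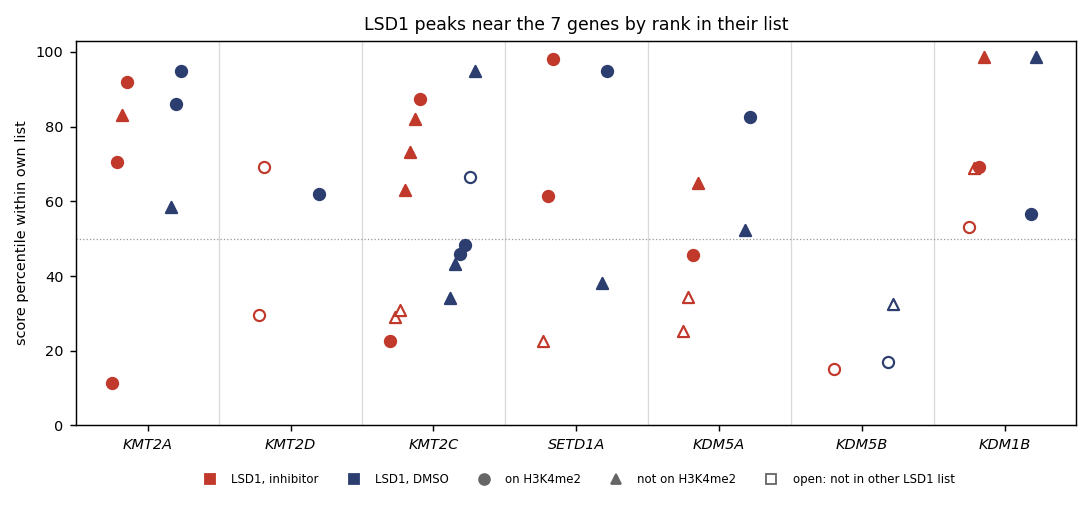
Score percentile of each LSD1 peak within its own list (y) by gene (x), with inhibitor peaks left of DMSO peaks; circles overlap H3K4me2, triangles do not, and open symbols have no overlap in the other LSD1 list. The windows of SETD1A and KDM1B hold the highest inhibitor peaks (98.1 and 98.7), KDM5B has open symbols only, all below 33, and the dotted line marks the 50th percentile.

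At the outer limit of the 20 kb reach, the last H3K4me1 interval inside lay 18.4 kb from KMT2D with a fold of 5.68, and the first outside lay 20.1 kb from the same gene with a fold of 7.48. The last LSD1 peak inside lay 14.3 kb from KMT2D with inhibitor and 19.6 kb from it with DMSO, with folds of 3.41 and 3.83. The first outside lay 20.4 kb from KMT2D with inhibitor and 22.6 kb from SETD1A with DMSO, with folds of 3.47 and 3.85.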

How the data were processed

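Peak lists of LSD1 with inhibitor, LSD1 with DMSO, H3K4me2 with DMSO and H3K4me1 with DMSO were analysed, each from 1 library. BWA, Picard and MACS2 2.0 with build hg19 are named in the submitters' processing notes; for the control, duplicate handling and depth, the sources used here state nothing. The 1 µM treatment protocol is repeated for each sample in the labels and was taken to concern only the GSK552 ones. The files have no header and their columns were read from the MACS2 layout, broad for LSD1 and narrow for the marks. The deposited score is 10 times the −log10 q. The deposited fold enrichment is a ratio over the caller's background. The −log10 p and −log10 q columns, deposited per peak, hold the authors' p-values and q-values and were used within a list. Rows of 1 interval were collapsed to the highest value.

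The members and their gene spans were chosen with earlier results of these data known. All 7 genes are named; named peaks are those at the start, the highest-scoring per list, single-list LSD1 peaks in the upper 50% and the widest mark intervals, and some others chosen after their values were seen. Overlap needed at least 1 bp. Score percentiles were computed from −log10 q. The implied background solves fold and Poisson p for 1 background with a pseudocount of 1, from the strongest row. It treats both as values of 1 position, and whether the broad layout of LSD1 holds such values was not checked. Overlap counting was tested on simulated data: of 2000 peaks, 50% were planted to overlap and 50% were found. Strand and neighbouring gene names came from RefSeq (GRCh38.p14). Alternatives changed the reach (the gene span only, 50 kb), the lists (upper 50%, or −log10 q of 2 or more for LSD1, chosen after seeing the data), the overlap (reciprocal) and the distance from a start (1 or 5 kb). Other genes of the pathway were not analysed here, for want of hg19 positions. Python 3.11.15, pandas 2.3.3, NumPy 2.4.6, SciPy 1.17.1 and matplotlib 3.10.9 were used.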

Additional observations from a re-analysis of the deposited data

How the results depend on the processing

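No paired analysis was possible because there was 1 library per group. Of 64 values recomputed, 46 stayed within the counting interval of the share or within 1.5 times the count. With a reciprocal overlap of 50% the shares were 24.0% of inhibitor LSD1 peaks in the DMSO list and 33.3% of DMSO peaks in the inhibitor list, 16.0% and 11.1% of LSD1 peaks with inhibitor and with DMSO on H3K4me2, 4.0% and 5.56% on H3K4me1, and 8.89% and 4.44% of H3K4me2 intervals with LSD1 with inhibitor and with DMSO, and the cause was not tested. The reciprocal shares were not computed for the whole lists. With the upper 50% of each list, 15 inhibitor and 11 DMSO LSD1 peaks, 27 H3K4me2 and 18 H3K4me1 intervals were left, and H3K4me1 was at 2 starts. On the gene span only there were 11 DMSO LSD1 peaks, 17 H3K4me2 and 20 H3K4me1 intervals. At a −log10 q of at least 2 for LSD1, a setting chosen after the data were seen, 11 DMSO peaks were left. LSD1 was then at 5 starts with inhibitor and at 4 with DMSO. Within 1 kb, H3K4me1 was at 1 start. Stricter settings keep fewer intervals by construction. Depth is unknown, which limits what a missing weak peak can show.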
